A study of Mus musculus with 16 samples.

Results

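The genes described here are the mouse zinc finger genes whose symbol is Zfp followed by a number. They were taken by name from the autosomal genes of a table of histone mark counts around gene starts, and 56 of its 3925 genes met the rule (56 of 3789 on autosomes). Chromatin immunoprecipitation with sequencing (ChIP-seq) was done on endosteal mesenchymal stromal cells, the stromal cells that line the inside of bone, next to the marrow. BAP1 strips the ubiquitin of the mark H2AK119ub1 off histone H2A, and the study compared cells with and without Bap1. Both genotypes carried floxed Bap1 alleles on the C57BL/6J strain. The control group, called WT, had genotype Bap1fl/fl without a recombinase, and the conditional knockout, called cKO, was Prx1-cre;Bap1fl/fl, in which Cre is driven by the Prx1 promoter of limb mesenchyme. The sources used here give neither age nor sex. Each genotype had 2 libraries for each of 4 marks, 16 libraries in total. Whether the 2 libraries of a group are from different animals is not stated in the labels, and the p-values below therefore measure only library-to-library spread, possibly technical.

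Zfp is the mouse prefix for zinc finger proteins, most of which bind DNA through repeated C2H2 fingers. Many carry a KRAB domain, which recruits TRIM28 and the H3K9 methyltransferase SETDB1, and the genes of such proteins lie in tandem clusters that are known for repression of transposable elements. Others have single roles. Zfp467 favours fat over bone formation in marrow stroma, Zfp422 (Krox-26) was described in tooth development, Zfp385a binds RNA and is a partner of p53, and Zfp703 is a transcriptional corepressor. H2AK119ub1 and H3K27me3 are the marks of the Polycomb repressive complexes, and H3K4me3 and H3K27ac mark active promoters. The antibody fields of the H3K4me3 and H3K27ac libraries are swapped relative to their titles, and the marks are named here by title.

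The promoters of some members with large changes in a mark are shown because the results below turn on them. Each sequence holds 250 bases before and 50 after the gene start of the RefSeq annotation of GRCm38.p6, 5′ to 3′ on the gene's strand, in lower case. Capitals mark the letters CCGGAA (the core of ETS factor motifs), CCAAT or GGGCGG (the GC box), on either strand. In Zfp592 a pair of GC boxes overlap each other, and no 2 different motifs overlap in these promoters. Zfp422, on the minus strand at chr6:116628652-116628951, and Zfp467, on the minus strand at chr6:48445041-48445340, lost H3K27me3 and gained both active marks. Zfp592, on the plus strand at chr7:80993434-80993733, had the largest H2AK119ub1 gain of the members tested.
Zfp422: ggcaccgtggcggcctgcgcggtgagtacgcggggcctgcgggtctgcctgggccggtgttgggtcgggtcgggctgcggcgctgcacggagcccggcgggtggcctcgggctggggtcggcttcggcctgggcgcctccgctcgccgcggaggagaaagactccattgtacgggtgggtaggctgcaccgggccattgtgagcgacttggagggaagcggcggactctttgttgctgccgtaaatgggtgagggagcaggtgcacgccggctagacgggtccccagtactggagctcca
Zfp467: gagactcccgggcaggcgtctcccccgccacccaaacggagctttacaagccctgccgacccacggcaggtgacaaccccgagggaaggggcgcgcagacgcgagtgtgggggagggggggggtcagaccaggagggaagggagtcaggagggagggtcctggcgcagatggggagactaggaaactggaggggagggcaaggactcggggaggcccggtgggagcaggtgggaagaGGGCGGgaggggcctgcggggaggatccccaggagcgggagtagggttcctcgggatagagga
Zfp592: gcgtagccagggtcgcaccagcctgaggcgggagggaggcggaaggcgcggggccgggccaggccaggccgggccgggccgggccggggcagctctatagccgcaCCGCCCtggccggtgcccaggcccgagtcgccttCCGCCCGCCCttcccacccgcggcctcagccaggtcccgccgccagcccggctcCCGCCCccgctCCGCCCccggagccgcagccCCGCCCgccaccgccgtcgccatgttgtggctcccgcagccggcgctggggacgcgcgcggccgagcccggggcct
Zfp28, on the plus strand at chr7:6383068-6383367, Zfp873, on the plus strand at chr10:82047873-82048172, and Zfp820, on the minus strand at chr17:21845710-21846009, lost both active marks.
Zfp28: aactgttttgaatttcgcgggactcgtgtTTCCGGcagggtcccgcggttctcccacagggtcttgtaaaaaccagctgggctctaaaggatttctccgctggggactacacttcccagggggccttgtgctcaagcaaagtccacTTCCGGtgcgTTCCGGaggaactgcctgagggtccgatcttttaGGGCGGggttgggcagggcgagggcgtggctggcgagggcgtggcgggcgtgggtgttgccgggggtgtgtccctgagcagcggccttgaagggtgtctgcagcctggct
Zfp873: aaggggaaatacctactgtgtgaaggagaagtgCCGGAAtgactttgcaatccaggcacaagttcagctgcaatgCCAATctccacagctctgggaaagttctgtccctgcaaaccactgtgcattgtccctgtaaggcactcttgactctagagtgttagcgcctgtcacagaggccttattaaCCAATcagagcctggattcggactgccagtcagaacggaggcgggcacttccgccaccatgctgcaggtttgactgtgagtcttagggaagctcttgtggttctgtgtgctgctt
Zfp820: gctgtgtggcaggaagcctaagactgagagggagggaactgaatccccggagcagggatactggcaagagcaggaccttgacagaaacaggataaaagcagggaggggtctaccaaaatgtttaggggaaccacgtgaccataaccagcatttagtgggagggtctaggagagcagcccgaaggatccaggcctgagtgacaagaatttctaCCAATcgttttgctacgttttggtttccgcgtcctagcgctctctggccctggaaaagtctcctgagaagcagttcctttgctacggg

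The sequence table held a promoter for 50 of the 56 members and for 2095 autosomal genes of the count table in all. CCGGAA was found in 36.0% of the members' promoters and in 21.1% of all. GGGCGG was found in 44.0% of the members' and in 66.9% of all. CCAAT was in 40.0% against 38.5%, CACGTG in 10.0% against 9.74% and TATAAA in 4.0% against 7.97%. The median G and C content was 54.3% in members and 62.0% in all promoters, and the median number of CpG in 300 bases was 15.5 against 21. These shares are descriptions of letters in a window and carry no test. Among the sequences shown, Zfp592 had 42 CpG and 6 GC boxes, Zfp422 had 32 CpG and none of the marked motifs, and Zfp873 had 6 CpG. Zfp28 held CCGGAA at 3 places.

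The members lay on 12 chromosomes, and 23 of the 56 (41.1%) were on chromosome 7. That chromosome holds 8.63% of the autosomal genes of the table and 23.7% of the 397 autosomal Zfp symbols in RefSeq. With gene starts within 1 Mb of the next member counted as a run, 25 members formed 9 runs. The run with the most genes had 6 over 316 kb of chromosome 7, with Zfp940, Zfp383, Zfp82, Zfp566, Zfp260 and Zfp146 in that order. Chromosome 7 also held Zfp865 with Zfp784, Zfp444 with Zfp667 and Zfp28, Zfp60 with Zfp780b, and Zfp658 with Zfp719. The others were Zfp983, Zfp820, Zfp947 and Zfp945 on chromosome 17, Zfp937 with Zfp442 and Zfp970 with Zfp972 on chromosome 2, and Zfp560 with Zfp266 on chromosome 9. Zfp566 and Zfp260 start head to head in adjoining windows. Zfp146 shares its window with Gm5113, and Zfp553 with ENSMUSG00000000486, so the reads of those pairs cannot be told apart.

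The authors marked every gene of the table UP or DOWN, and the sources used here do not say from which contrast. They marked 39 members UP (69.6%), beside 48.8% of autosomal genes. On chromosome 7, 21 of 23 members were UP, beside 230 of 304 other genes (75.7%), and elsewhere 18 of 33 members were UP. The table is thus a chosen set of genes, and the counts of changes below apply to that set. Among members the direction of this mark matches that of every H3K4me3 call given below.

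Library totals over the table ranged from 1283020 to 10101047 counts, with H3K27me3 lowest and H3K4me3 highest. A read was counted in about 3 neighbouring bins, and 1 bin in 3 held 429780 to 3371280 counts. Levels are CPM, the counts scaled to a common library size, of the 4 kb around the gene start, and changes are log2 of cKO over WT ± SE from edgeR's quasi-likelihood test, with p-values adjusted over all promoters by the method of Benjamini and Hochberg and called at 0.05. "Rose", "fell", "higher" and "lower" in counts of genes mean such a call. A promoter is set beside its neighbours, which are those of the 20 nearest genes of the table that are no members and were tested (15 to 20 genes), by their median log2 change in the same mark. Of 12 stromal marker promoters 8 were among the named windows, all marked DOWN by the authors. The table is a chosen set, so these 8 cannot check the stromal character of the cells. Their summed H3K4me3 was 2145 and 2355 CPM in WT and 820 and 856 CPM in cKO. H3K4me3 fell at 7 of the 8, beside 31.8% of all promoters, and Col1a2 had the largest loss among those in H3K27ac (-3.27 ± 0.17). Summed H3K27ac was 1681 and 1908 CPM in WT and 568 and 580 CPM in cKO. None of 9 blood or 5 endothelial markers was among the named windows. Libraries of bulk cells do not separate fewer cells of a type from less mark per cell, and the part of this difference in the Zfp results was not tested.

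In WT cells the Zfp promoters carried little Polycomb mark and middling active marks. The median member stood at percentile 13.9 of autosomal promoters in H2AK119ub1, 21.8 in H3K27me3, 41.2 in H3K4me3 and 40.7 in H3K27ac. For H2AK119ub1, 22 members (39.3%) lay in the lowest 10% of promoters, and the median percentile was 9.75 on chromosome 7, 18.9 for the other genes of that chromosome and 29.7 for members elsewhere. A few stood at the other end. Zfp385a, Zfp467 and Zfp703 were in the top 10% in H2AK119ub1, and Zfp105, Zfp422 and Zfp467 in H3K27me3. Zfp703 had the highest active marks of all members, with 737 and 712 CPM of H3K4me3 and 1076 and 959 CPM of H3K27ac in the WT libraries, and only Zfp438 was also in the top 10% in H3K27ac. The H3K4me3 of members lay close to the start. A median of 76.9% of the 10 kb window's counts fell within 1 kb of it in WT, against 61.3% at other autosomal genes. For H3K27ac these shares were 51.4% and 41.1%, and for H2AK119ub1 21.3% and 20.8%.

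**Figure D1:**
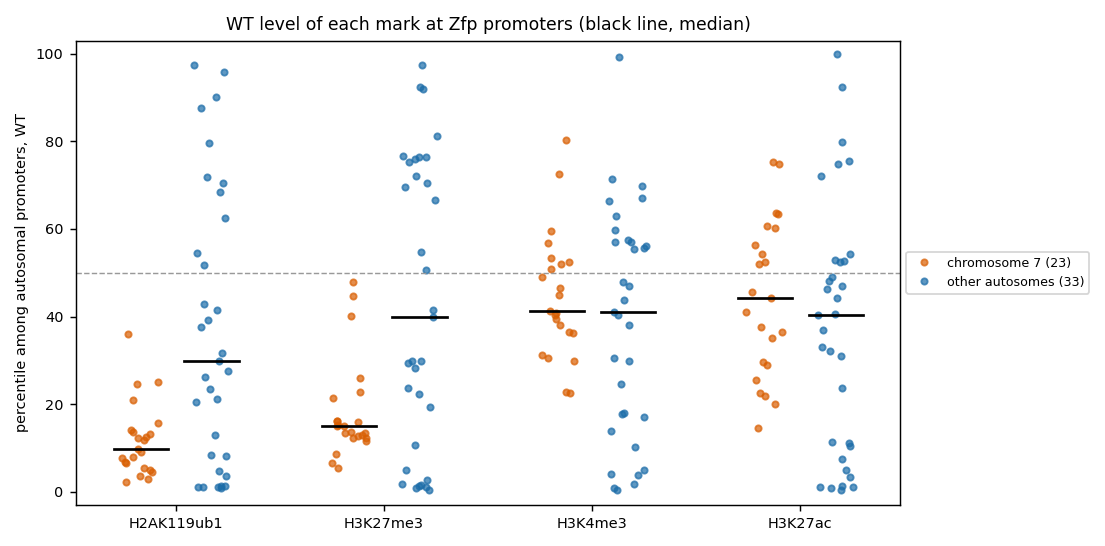
WT level of each mark at the 56 Zfp promoters, as a percentile among autosomal promoters (mean of 2 libraries), with chromosome 7 members in orange, others in blue and medians as black lines. The orange points for H2AK119ub1 lie low, with a median of 9.75, and those for H3K4me3 spread around 41.2.

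H3K4me3 rose at 32 of 56 members and fell at 12. Over all 3905 promoters tested, 40.5% were called higher and 31.8% lower. The members' median change was 0.50, beside 0.04 for all genes. All 32 gains were at the 39 members the authors marked UP, and all 12 losses at the 17 marked DOWN. The excess of gains thus goes with the members' larger share marked UP (69.6%, beside 48.8% of autosomal genes) and cannot be told apart from it. H3K27ac rose at 24 of 54 members tested and fell at 12, with 30.9% of all promoters called higher and 29.1% lower. The median was 0.37, beside -0.00 for all genes. All 24 H3K27ac gains were at members marked UP, and 9 of the 12 losses at members marked DOWN. Both marks rose at 22 members and both fell at 8, and Zfp141 was the 1 member at which they were called in opposite directions. Across the 54 members with both values the 2 changes had a Pearson correlation of 0.81, beside 0.82 across other genes, as a description of promoters that share libraries. Only 5 members (Zfp442, Zfp558, Zfp90, Zfp983 and Zfp992) were called in no mark. Of these, Zfp442 and Zfp992 lay in the lowest 10% of WT promoters in all 4 marks. Zfp558 did so in both active marks and Zfp983 in both Polycomb marks, so for these genes low counts limit a call. Joint calls and genes without a call were not counted over all promoters, so these counts do not set the members apart.

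**Figure D2:**
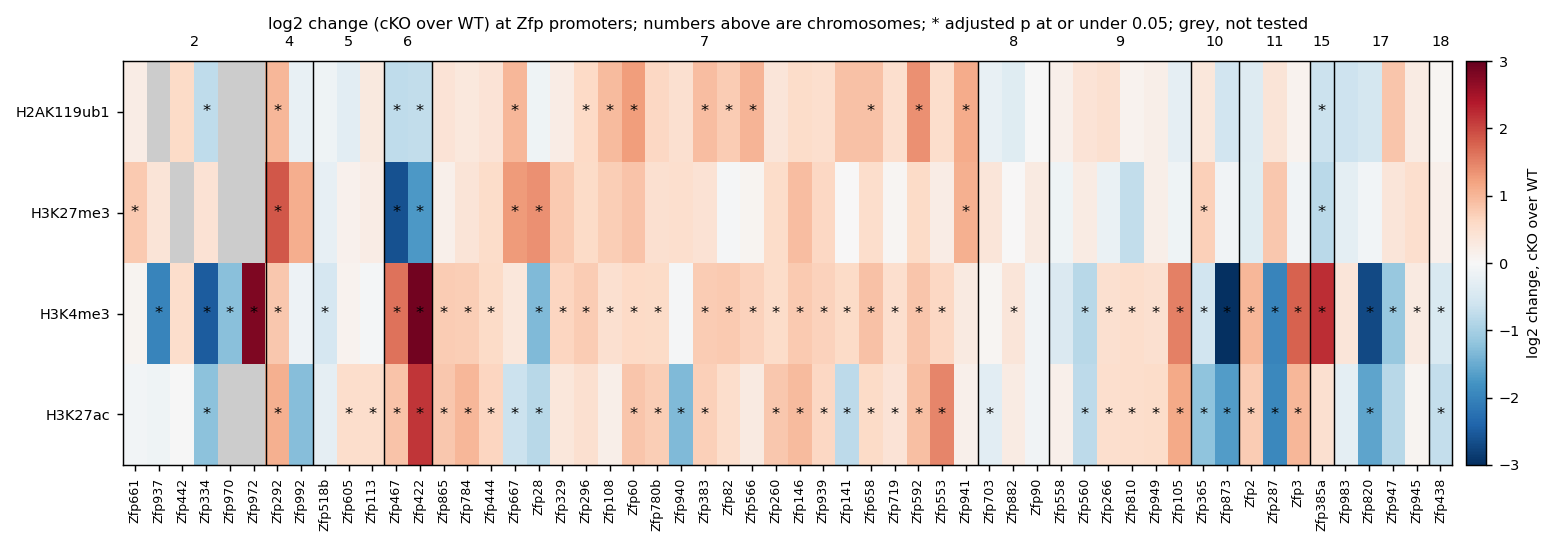
Heat map of the log2 change of cKO over WT at each Zfp promoter (columns, ordered by chromosome and position) in the 4 marks (rows). Red is higher and blue lower in cKO, asterisks mark calls, and grey cells were not tested. The chromosome 7 members have mostly positive changes in every mark, while those elsewhere run from -3.0 (Zfp873, H3K4me3) to 2.89 (Zfp422, H3K4me3).

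Zfp422 had the largest gains of both active marks among the members tested. Its H3K4me3 was 20.3 and 29.4 CPM in the WT libraries and 193 and 180 CPM in the cKO libraries, a change of 2.89 ± 0.16 (edgeR adjusted p = 1.65e-66). H3K27ac was 31.6 and 36.3 CPM in WT and 151 CPM in both cKO libraries (2.15 ± 0.22, edgeR adjusted p = 4.11e-10). The Polycomb marks moved the other way. H3K27me3 was 333 and 253 CPM in WT and 85.0 and 92.9 CPM in cKO (-1.72 ± 0.28, edgeR adjusted p = 3.18e-08). H2AK119ub1 fell from 157 and 184 CPM to 114 and 92.1 CPM (-0.73 ± 0.21, edgeR adjusted p = 0.00338). In each mark the WT and cKO libraries did not overlap. Its neighbours had medians of -0.51 in H3K4me3 and -0.25 in H3K27me3, so the gain of H3K4me3 ran against its surroundings.

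Zfp467, the fat-promoting factor of marrow stroma, had the largest loss of H3K27me3 among the members. The WT libraries held 483 and 444 CPM and the cKO libraries 79.5 and 71.2 CPM, a change of -2.62 ± 0.28 (edgeR adjusted p = 2.06e-18). H3K4me3 was 116 and 145 CPM in WT and 410 and 396 CPM in cKO (1.62 ± 0.10, edgeR adjusted p = 1.91e-59). H3K27ac was 64.9 and 74.4 CPM in WT and 134 and 116 CPM in cKO (0.85 ± 0.21, edgeR adjusted p = 0.000665). H2AK119ub1 changed from 215 and 197 CPM to 129 and 115 CPM (-0.75 ± 0.20, edgeR adjusted p = 0.00164). The groups were apart in all 4 marks here too. Zfp422 and Zfp467 were the 2 members at which H3K27me3 fell while both active marks rose.

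Zfp385a, the RNA-binding partner of p53, went from 24.2 and 28.8 CPM of H3K4me3 in WT to 131 and 114 CPM in cKO (2.20 ± 0.19, edgeR adjusted p = 3.1e-30). H2AK119ub1 fell from 217 and 224 CPM to 146 and 138 CPM (-0.63 ± 0.20), and H3K27me3 from 192 and 118.9 CPM to 73.4 and 105 CPM (-0.80 ± 0.28). H3K27ac was 39.1 and 64.6 CPM in WT and 67.8 and 78.1 CPM in cKO, which was not called (0.48 ± 0.27, edgeR adjusted p = 0.116). The H3K4me3 gains at these 3 genes lay close to the start. From 2 to 5 kb away the changes were -0.76 at Zfp422, -0.65 at Zfp467 and -1.04 at Zfp385a, of which the last was called lower (edgeR adjusted p = 0.00216). Such flank losses were common: there H3K4me3 was called higher at 390 and lower at 1429 of all promoters. At other autosomal genes the median share of H3K4me3 within 1 kb was 61.3% and 61.5% in the WT libraries and 73.2% and 72.4% in the cKO libraries. Zfp422, Zfp467 and Zfp385a were also the only members at which H3K27me3 fell, and H2AK119ub1 fell at each. In the fit relative to neighbouring windows the H3K27me3 losses at Zfp422 and Zfp467 remained called, and that at Zfp385a (-0.54) and all 3 H2AK119ub1 losses did not.

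**Figure D3:**
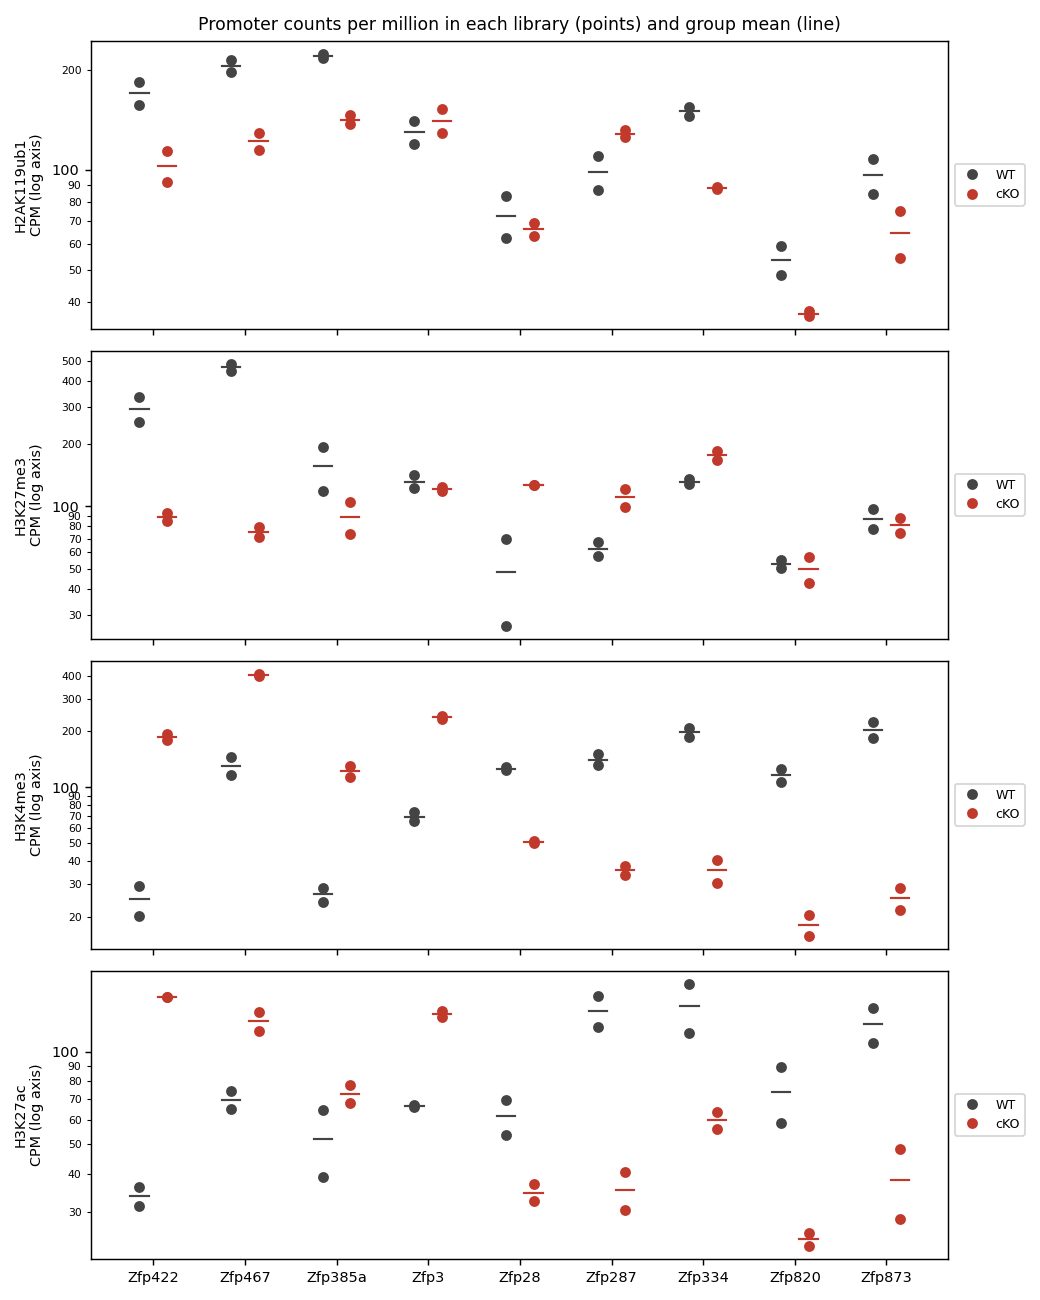
CPM of the 4 kb promoter in each library (points, 2 per genotype) and the group mean (line) for 9 Zfp genes, on log axes, 1 panel per mark. At Zfp422 and Zfp467 the cKO points lie below WT in the upper panels and above WT in the lower ones, and at Zfp873 and Zfp820 the cKO points of the active marks lie below WT.

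Zfp3 and Zfp105 gained active marks with no call in H3K27me3. Zfp3 had 65.6 and 73.3 CPM of H3K4me3 in WT and 244 and 233 CPM in cKO (1.78 ± 0.13, edgeR adjusted p = 1.26e-40). Its H3K27ac was 65.9 and 67.3 CPM in WT and 129 and 136 CPM in cKO (0.99 ± 0.20). H3K27me3 at Zfp3 was 122 to 140.5 CPM in WT and 118 to 124 CPM in cKO. Zfp105 was among the top 10% in H3K27me3 in WT, with 316 and 249 CPM, and 270.0 and 250.2 CPM in cKO (-0.12 ± 0.26, edgeR adjusted p = 0.786). H3K4me3 there was 31.3 and 21.6 CPM in WT and 79.8 and 71.5 CPM in cKO (1.52 ± 0.22), and H3K27ac rose by 1.13 ± 0.28. Zfp2, on chromosome 11 like Zfp3, rose from 51.2 and 36.4 CPM of H3K4me3 to 79.5 and 95.3 CPM (1.00 ± 0.19) and in H3K27ac by 0.77 ± 0.33. Neighbours of Zfp3 and Zfp2 had H3K4me3 medians of 0.22 and 0.40.

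Zfp292, a large zinc finger gene on chromosome 4, was called higher in all 4 marks. H3K27me3 was 25.9 and 23.3 CPM in WT and 71.6 and 108 CPM in cKO (1.86 ± 0.45, edgeR adjusted p = 0.000293), the largest gain of that mark among the members. H2AK119ub1 was 43.8 and 44.3 CPM in WT and 99.8 and 76.4 CPM in cKO (1.00 ± 0.30). H3K4me3 was 188 and 204 CPM in WT and 346 and 337 CPM in cKO (0.80 ± 0.10), and H3K27ac 102.2 and 134 CPM against 261 and 239 CPM (1.08 ± 0.17). Its neighbours had near values in 3 marks, with medians of 0.84 in H2AK119ub1, 0.87 in H3K4me3 and 0.99 in H3K27ac. In H3K27me3 their median was only 0.33. The H3K27me3 gain of Zfp292 remained called in the fit relative to neighbouring windows, and its H2AK119ub1 gain did not.

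Among the losses, Zfp873 on chromosome 10 had the largest fall of H3K4me3. The WT libraries held 224 and 185 CPM and the cKO libraries 21.7 and 28.8 CPM (-3.0 ± 0.16, edgeR adjusted p = 1.93e-76), while its neighbours had a median of 0.29. H3K27ac fell from 107 and 139 CPM to 28.7 and 48.1 CPM (-1.68 ± 0.25). No gain of a Polycomb mark went with it: H3K27me3 was 77.6 and 97.1 CPM in WT and 74.0 and 88.1 CPM in cKO, and H2AK119ub1 was 84.7 and 108 CPM in WT and 54.2 and 75.3 CPM in cKO (-0.57 ± 0.27, edgeR adjusted p = 0.0928). Zfp820, in the chromosome 17 run, showed the same combination. Its H3K4me3 went from 107 and 126 CPM to 20.4 and 15.8 CPM (-2.70 ± 0.20) and its H3K27ac from 58.8 and 88.8 CPM to 23.4 and 25.7 CPM (-1.59 ± 0.31), with H3K27me3 at 50.5 to 55.2 CPM in WT and 42.7 to 57.0 CPM in cKO.

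Zfp334 on chromosome 2 lost H3K4me3 from 208 and 188 CPM to 40.5 and 30.6 CPM (-2.49 ± 0.15) and H3K27ac from 166 and 115 CPM to 63.6 and 55.9 CPM (-1.23 ± 0.22). It also lost H2AK119ub1, from 145 and 155 CPM to 87.9 and 88.6 CPM (-0.77 ± 0.22, edgeR adjusted p = 0.00339), the largest fall of that mark among members. H3K27me3 was 128 and 134 CPM in WT and 167 and 184 CPM in cKO, which was not called (0.42 ± 0.28). Zfp287, which carries SCAN and KRAB domains, had 132 and 151 CPM of H3K4me3 in WT and 33.7 and 37.8 CPM in cKO (-1.98 ± 0.17). Its H3K27ac of 152 and 120 CPM went to 40.5 and 30.5 CPM (-1.93 ± 0.23), the largest fall of H3K27ac among members. H3K27me3 at Zfp287 was 57.8 and 67.6 CPM in WT and 121 and 99.7 CPM in cKO, short of a call (0.82 ± 0.34, edgeR adjusted p = 0.0598).

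At Zfp28 and Zfp365 both active marks fell and H3K27me3 rose, the reverse of Zfp422 and Zfp467. Zfp28, on chromosome 7, had 128 and 124 CPM of H3K4me3 in WT and 51.1 and 49.95 CPM in cKO (-1.32 ± 0.17, edgeR adjusted p = 9.01e-15). Its H3K27me3 was 26.7 and 69.9 CPM in WT and 127 and 126 CPM in cKO (1.38 ± 0.35, edgeR adjusted p = 0.000599), and H3K27ac changed by -0.82 ± 0.30. The neighbours of Zfp28 moved the other way in the active marks, with medians of 0.70 in H3K4me3 and 1.01 in H3K27ac, and had 0.65 in H3K27me3. Zfp365, which acts in the response to DNA damage, fell from 236 and 238 CPM of H3K27ac to 98.0 and 106 CPM (-1.22 ± 0.17) and in H3K4me3 by 0.58 ± 0.10 on the log2 scale. Its H3K27me3 was 62.9 and 157 CPM in WT and 208 and 153 CPM in cKO, so the groups overlapped although the change was called (0.71 ± 0.28, edgeR adjusted p = 0.0402). In the fit relative to neighbouring windows neither H3K27me3 gain was called.

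The other members at which both active marks fell were Zfp560 on chromosome 9 (-0.84 ± 0.12 in H3K4me3, -0.77 ± 0.22 in H3K27ac) and Zfp438 (-0.45 ± 0.12 and -0.70 ± 0.15). Zfp560 lies in a run with Zfp266, which moved the other way, from 289 and 278 CPM of H3K4me3 in WT to 428 and 367 CPM in cKO (0.49 ± 0.09). Zfp438 was not called in the fit relative to neighbouring windows. Zfp518b, whose human orthologue binds the H3K9 methyltransferase G9a, fell in H3K4me3 (-0.50 ± 0.13) and was not called in H3K27ac (-0.26 ± 0.23). The corepressor gene Zfp703 was not called in H3K4me3, with 737 and 712 CPM in WT and 789 and 717 CPM in cKO (0.06 ± 0.07, edgeR adjusted p = 0.46), and its H3K27ac of 908 and 734 CPM in cKO was called lower by a small change (-0.31 ± 0.13, edgeR adjusted p = 0.0395), with neighbours at -0.46.

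**Figure D4:**
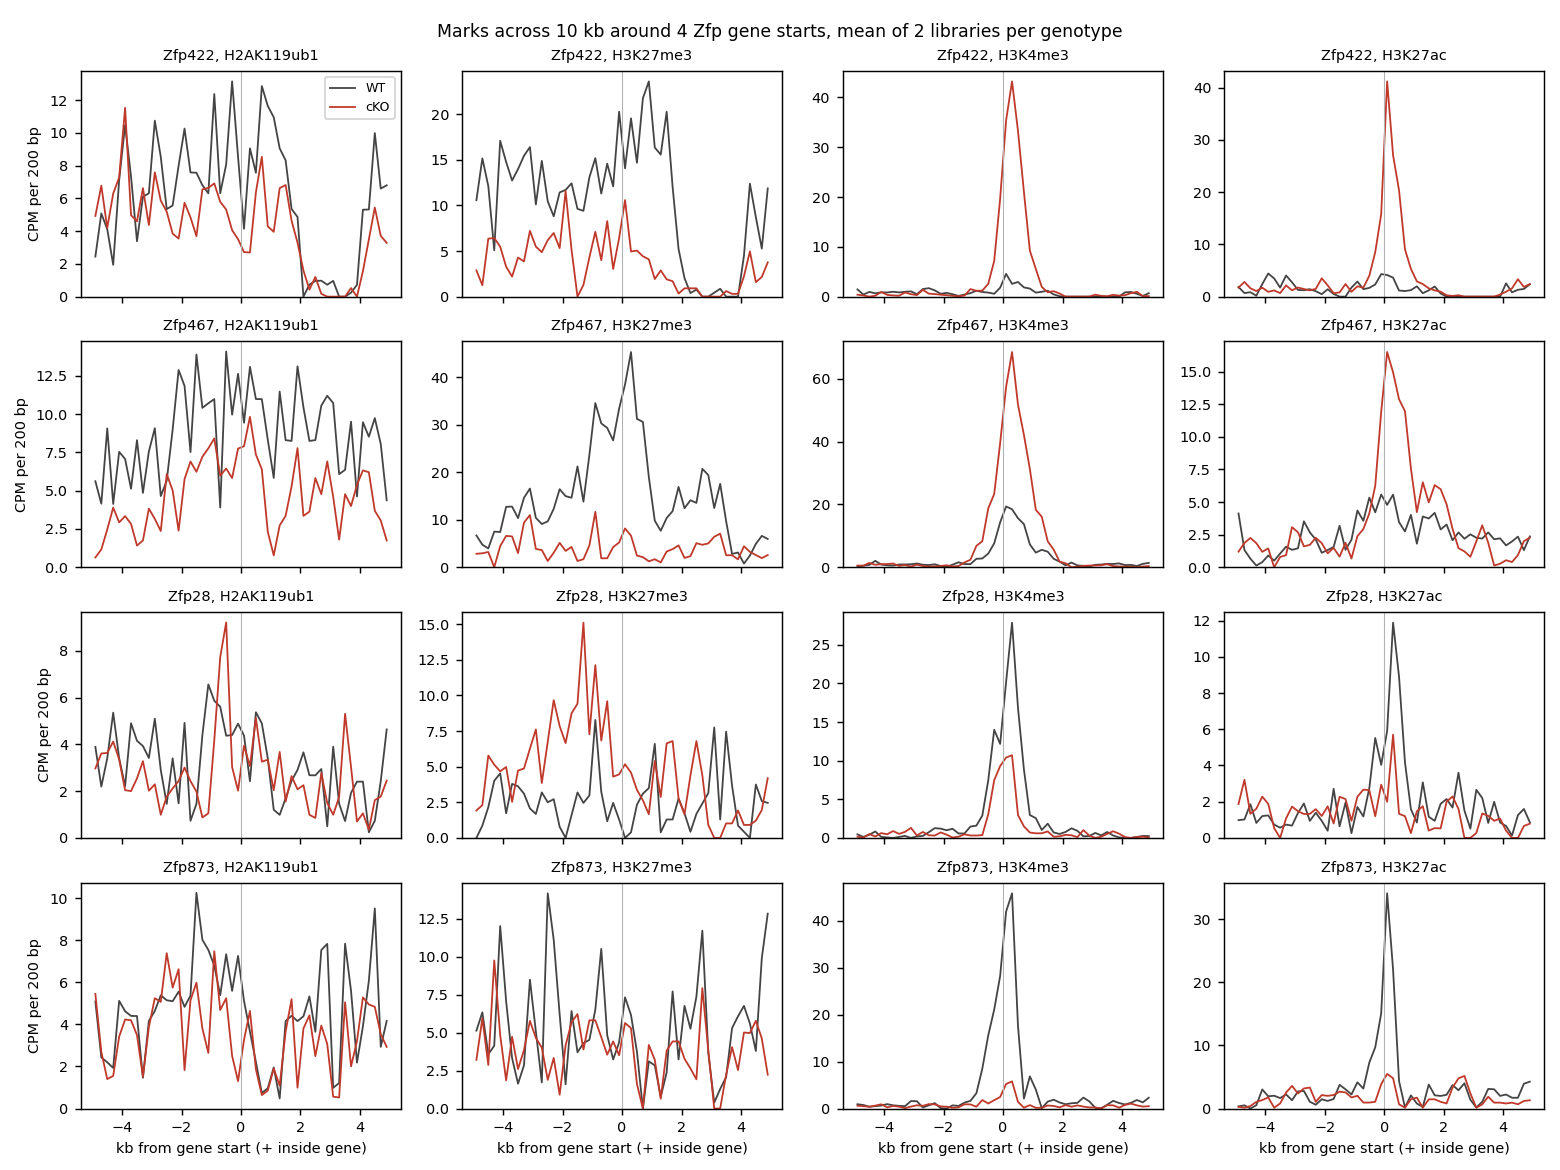
CPM per 200 bp across 10 kb around the start of Zfp422, Zfp467, Zfp28 and Zfp873 (rows) in the 4 marks (columns), as the mean of 2 libraries for WT (grey) and cKO (red). The H3K27me3 of Zfp467 in WT spreads over the window and is low in cKO, and the H3K4me3 peak of Zfp873 near the start is seen in WT and is low in cKO.

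Chromosome 7 was high in all 4 marks in cKO, at members and other genes alike in direction. H3K4me3 rose at 19 of the 23 and fell at 1, with a median of 0.63, beside 218 higher and 22 lower of 302 other chromosome 7 genes and a median of 0.69. H3K27ac rose at 13 and fell at 4 (median 0.58), beside 193 and 15 of the others (median 0.75). The members stood below their own neighbours in 18 of 23 cases for H3K4me3 and in 19 of 23 for H3K27ac. Other chromosome 7 genes stood below in 151 of 302 cases in each of these marks. In the Polycomb marks the members stood above their neighbours, in 18 of 23 cases for H2AK119ub1 and 15 of 23 for H3K27me3. Among the 301 other genes tested, 156 stood above in each Polycomb mark. Members of a run share neighbours, so these cases are not separate. Of the 33 members on other chromosomes H3K4me3 rose at 13 and fell at 11 (median 0.07), and H3K27ac rose at 11 and fell at 8 of 31 tested (median -0.02). Against the other genes off chromosome 7, H3K4me3 was higher at 39.4% and lower at 33.3% of these members, beside 38.1% and 33.8% of the other genes, and H3K27ac at 35.5% and 25.8%, beside 28.5% and 30.9%. In the fit relative to neighbouring windows, 10 of the 19 H3K4me3 gains and 7 of the 13 H3K27ac gains on chromosome 7 remained. Over all members 22 of 32 H3K4me3 gains and 10 of 12 losses remained, and 15 of 24 H3K27ac gains and 10 of 12 losses. For the active marks that fit uses the change of the neighbours' Polycomb marks. It does not remove a regional gain of the active marks themselves, and a gain that remained need not exceed that of its neighbours.

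**Figure D5:**
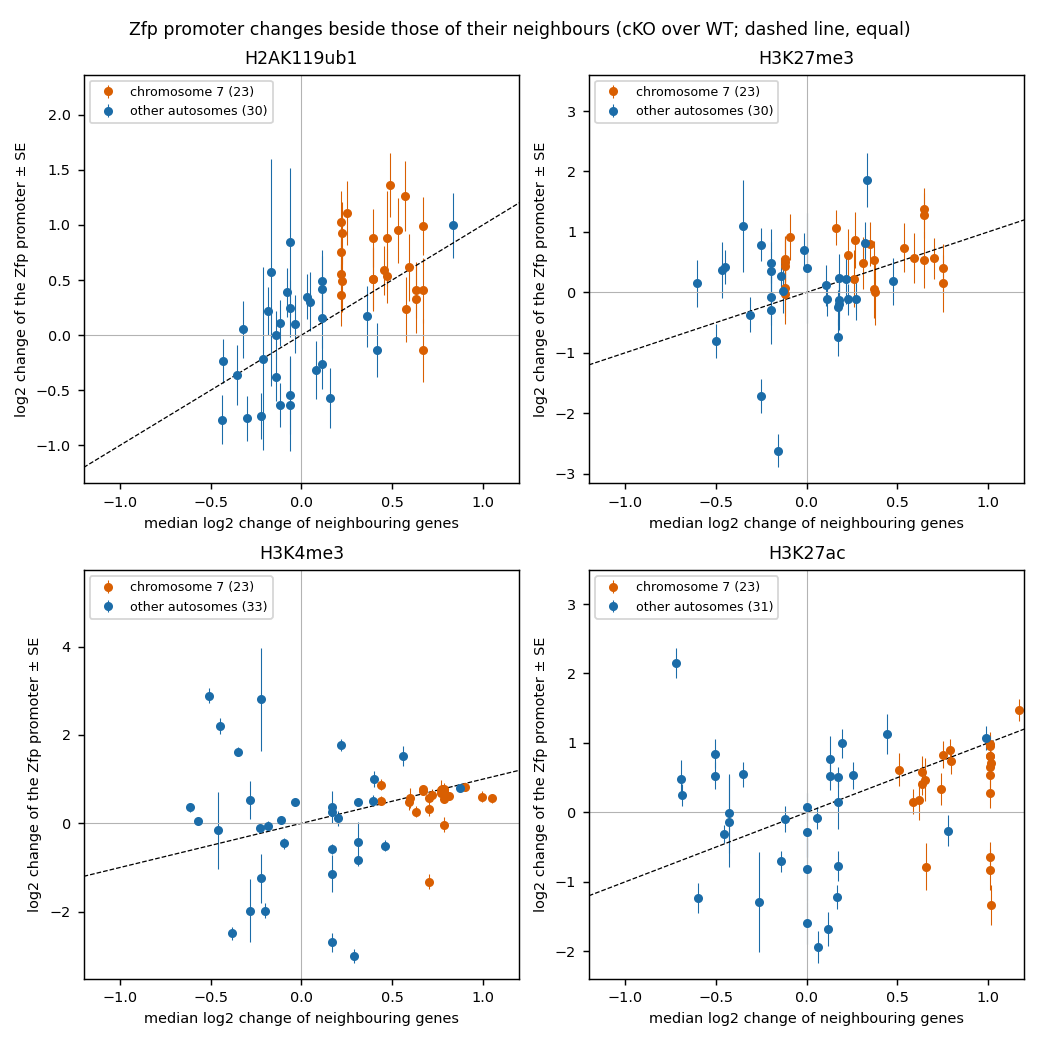
Log2 change of each Zfp promoter ± SE against the median change of the non-members among its 20 nearest genes, 1 panel per mark, with chromosome 7 in orange and the dashed line where both are equal. For H3K4me3, 18 of the 23 orange points lie under the line, and the largest departures are Zfp422 above it and Zfp873 below it.

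The leading chromosome 7 gains were even between libraries. Zfp592, whose human orthologue associates with ZMYND8, had 280 and 299 CPM of H3K4me3 in WT and 529 and 504 CPM in cKO (0.83 ± 0.08, edgeR adjusted p = 2.82e-23), with neighbours at 0.90. Zfp553 had the largest H3K27ac gain of the members on the chromosome, from 130 and 140 CPM to 400 and 349 CPM (1.47 ± 0.16, edgeR adjusted p = 1.82e-09). Its neighbours were at 1.17, its window is shared with another gene, and other genes of the chromosome reached 4.21. Zfp865 rose from 185 and 189 CPM to 326 and 312 CPM of H3K4me3 (0.77 ± 0.10), and its run partner Zfp784 from 148 and 161 CPM to 247 and 269 CPM (0.74 ± 0.11). In H3K27ac Zfp784 went from 167 and 157 CPM to 353 and 292 CPM (0.99 ± 0.16). Zfp296, known as a factor of cell reprogramming, had low H3K4me3 of 38.2 and 38.7 CPM in WT and 68.4 and 62.1 CPM in cKO (0.76 ± 0.21).

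The run of 6 was not uniform. H3K4me3 rose at Zfp146 (0.78 ± 0.09), Zfp82 (0.78 ± 0.13), Zfp383 (0.76 ± 0.10), Zfp566 (0.70 ± 0.11) and Zfp260 (0.56 ± 0.10), against a neighbour median of 0.79. Zfp940, at one end of the run, was at 70.2 and 83.5 CPM in WT and 70.9 and 79.5 CPM in cKO (-0.03 ± 0.18). Its H3K27ac fell from 73.7 and 83.6 CPM to 26.0 and 36.5 CPM (-1.33 ± 0.28, edgeR adjusted p = 0.00013), while the neighbour median was 1.01. Zfp146, which encodes a protein made almost wholly of fingers, went from 142 and 139 CPM of H3K27ac to 274 and 268 CPM (0.95 ± 0.16), and Zfp260, a cofactor of GATA4 in the heart, from 161 and 167 CPM to 304 and 274 CPM (0.82 ± 0.16). H3K27ac was not called at Zfp82 or Zfp566.

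The run of Zfp444, Zfp667 and Zfp28 split as well. Zfp444 gained H3K4me3 (0.58 ± 0.10) and H3K27ac (0.65 ± 0.16). Zfp667, named Mipu1 in rat for its induction in ischaemia, was not called in H3K4me3 (0.33 ± 0.17) and fell in H3K27ac from 114 and 108 CPM to 61.8 and 79.96 CPM (-0.64 ± 0.21, edgeR adjusted p = 0.00965). It gained H3K27me3 from 47.4 and 42.7 CPM to 111 and 107 CPM (1.27 ± 0.37) and H2AK119ub1 from 40.9 and 79.8 CPM to 123 and 117 CPM (0.99 ± 0.26). On chromosome 17 H3K4me3 fell at Zfp820 and Zfp947, rose at Zfp945 (0.26 ± 0.12) and was not called at Zfp983. Zfp141 on chromosome 7 rose in H3K4me3 from 38.2 and 37.2 CPM to 59.99 and 51.7 CPM (0.57 ± 0.22) and fell in H3K27ac from 42.5 and 49.4 CPM to 31.3 and 22.2 CPM (-0.78 ± 0.34, edgeR adjusted p = 0.0436).

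H2AK119ub1, the mark that BAP1 removes, rose at 11 of 53 members tested and fell at 4. Of all 3889 promoters tested, 16.7% were called higher and 16.4% lower, and the members' median change of 0.35 stood beside 0.02 for all genes. All gains but that of Zfp292 were on chromosome 7, where 10 of 23 members rose and none fell, beside 105 higher and 2 lower of 301 other genes. The median there was 0.59 for members and 0.48 for the others, and elsewhere the members' median was 0.03. Zfp592 had 35.1 and 43.8 CPM in WT and 98.1 and 105 CPM in cKO (1.36 ± 0.29, edgeR adjusted p = 6.93e-05). Zfp60 went from 37.1 and 31.0 CPM to 78.1 and 85.1 CPM (1.26 ± 0.32), Zfp941 from 44.3 and 43.4 CPM to 98.1 and 91.1 CPM (1.11 ± 0.29) and Zfp566 from 51.5 and 48.8 CPM to 105 and 98.8 CPM (1.02 ± 0.28). The cKO libraries of each were above both WT libraries, and the cKO levels stayed below the median promoter of WT, at 108 CPM. Zfp667, Zfp108, Zfp383, Zfp658, Zfp82 and Zfp296 followed with changes from 0.99 to 0.59.

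In the fit relative to neighbouring windows 5 of the 11 gains were called (Zfp383, Zfp566, Zfp592, Zfp60 and Zfp941) and none of the 4 losses was. These counts rest on both cKO libraries: without cKO replicate 1, or without cKO replicate 2, no member was called in either direction, in fits where 4 and 120 of all promoters were called higher.

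H3K27me3 rose at 6 of 53 members tested and fell at 3, with 12.4% of all 3883 promoters called higher and 15.6% lower. The median change of 0.35 stood beside 0.03 for all genes. The gains were Zfp292, Zfp28, Zfp667, Zfp941, Zfp661 and Zfp365. Zfp941 went from 51.7 and 101.8 CPM to 161 and 163 CPM (1.07 ± 0.29, edgeR adjusted p = 0.00149). Zfp661 on chromosome 2 went from 111 and 118.9 CPM to 185 and 214 CPM (0.79 ± 0.28, edgeR adjusted p = 0.0202) while its neighbours had a median of -0.25, and it was called in no other mark. On chromosome 7, 3 of 23 members rose and none fell (median 0.54), beside 56 higher and 16 lower of 301 other genes (median 0.42). Zfp292, Zfp661 and Zfp941 remained called relative to neighbouring windows. Leaving out WT replicate 1 left 3 members called higher. H3K27me3 and H2AK119ub1 were both higher at 3 members and both lower at 3, and such joint calls were not counted over all promoters. Their changes had a Pearson correlation of 0.56 across 52 members and 0.54 across other genes. H3K27me3 and H3K4me3 had -0.31 across 53 members and -0.25 across other genes.

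Some members could hardly be measured. Zfp970 and Zfp972 had too few counts to be tested in H2AK119ub1, H3K27me3 and H3K27ac, Zfp937 in H2AK119ub1 and Zfp442 in H3K27me3. H3K4me3 at Zfp937, Zfp970 and Zfp972 was called, yet at levels under 17 CPM in every library, and at Zfp972 the WT libraries held 0 and 0.764 CPM against 3.32 and 2.78 CPM in cKO. The groups overlapped at Zfp970. The promoter of Zfp442 matched that of Zfp937 in 93.7% of 300 bases, and that of Zfp970 matched Zfp966 in 97.7%, so reads there may come from either copy, and how reads with several matches were placed is not stated in the labels. No other promoter of the 50 compared had a match of 90% or more.

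Other zinc finger families, listed by their names (Zbtb, Zscan, Zkscan, Zfhx, Zeb, Klf, Sp, Egr, Gli, Zic, Zc3h and Zfpm), had 27 genes in the table. H3K4me3 rose at 14 and fell at 6, beside 40.5% higher and 31.8% lower of all promoters. H3K27ac rose at 9 and fell at 8 of 26, beside 30.9% and 29.1%. H2AK119ub1 rose at 4 and fell at 1, beside 16.7% and 16.4%, and H3K27me3 rose at 3 and fell at 3, beside 12.4% and 15.6%. Klf4, a factor of the Krüppel-like family used in reprogramming, rose in H3K4me3 by 1.47 ± 0.08 and in H2AK119ub1 by 1.11 ± 0.25. Klf13 rose in H3K4me3 by 1.02 ± 0.07. Zfhx4, a zinc finger homeobox gene, gained H3K27me3 from a mean of 52.5 to 235 CPM (2.16 ± 0.29) and lost H3K27ac from 367 to 63.7 CPM (-2.52 ± 0.18). Zfpm2 (Fog2), a GATA cofactor, changed by -0.93 ± 0.08 in H3K4me3 and -1.99 ± 0.16 in H3K27ac, and Zc3h12a (Regnase-1), an RNase, by -1.71 ± 0.19 in H3K27ac. The changes of Klf4, Klf13, Zfhx4, Zfpm2 and Zc3h12a are given without those of their neighbours. They therefore do not show how much of each change is shared by the region. Of 27 genes of the KRAB corepressor and H3K9 methylation machinery only Cbx1 and Trim24 were in the named windows. Cbx1, which encodes HP1β, rose in H3K4me3 (0.78 ± 0.08) beside neighbours at 0.85, and in H3K27me3 (1.08 ± 0.29) beside 0.82. Trim24, a bromodomain corepressor, fell in H3K4me3 (-0.33 ± 0.08) beside neighbours at -0.37 and in H2AK119ub1 (-0.65 ± 0.22) beside -0.29.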

How the data were processed

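Marks were measured by ChIP-seq in 16 libraries, 2 per genotype and mark, grouped by title. Per the file headers, each deposited row holds 200 bins of 50 bp across a gene start, filled with raw read counts. Per the submitters' processing notes the build was GRCm38 and the tools included Bowtie2 2.4.5 and cutadapt 1.18, and bedtools 2.30.0, SAMtools 1.9 and Picard 2.25.5, whose settings and order are not stated. Of runs of filled bins with counts of 1 and under 6 bins long, 98.3% were 3 bins long, so sums hold a read about 3 times.

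Symbols came from RefSeq (GRCm38.p6) by position: a gene 5′ end on the window's strand within 500 bp of its centre. This named 3000 windows (76.4%). No gene was found for 859, more than 1 for 48, and a name used elsewhere for 18. At positions shifted by 20 kb, 113 (2.88%) were named. Bins 61 to 140 were summed and tested per mark with edgeR 4.0.16 under R 4.3.3 (robust glmQLFit), genotype as the term, library sizes from autosomal sums times TMM factors of 10 kb windows, and filterByExpr with a minimum count of 10. CPM use the same sizes. The fit relative to neighbouring windows used the median change of the 20 nearest genes, members included, in the other Polycomb mark, or in both for the active marks, as an offset. Scripts were tested on simulated data.

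Full statistics are given for members called with groups apart, up to 8 of lowest p in each mark and direction, for Zfp467 and Zfp703 as role genes, and for up to 4 genes of each other list. Other members with values were chosen after these were seen. The members and lists were chosen with earlier results of these data known. Alternatives were DESeq2 1.42.0, other scalings, widths, filters and sets of libraries. Input libraries and the Bap1 locus were not analysed here.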

Additional observations from a re-analysis of the deposited data

How the results depend on the processing

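Calls in the active marks depended little on scaling, and H2AK119ub1 calls depended on both cKO libraries. Total counts, TMM factors from promoters, scaling on the outer 1 kb, no filter and 1 bin in 3 changed none of the 52 gene and mark results with full statistics, and 11 of the 52 were called under every alternative, among them Zfp422 and Zfp467 in H3K27me3 and Zfp820 and Zfp873 in H3K4me3. With 1 kb to each side, H2AK119ub1 was higher at 6 and lower at 1 member, H3K27me3 higher at 1, and the WT median percentiles were 20.2, 26.3, 45.0 and 43.8 for H2AK119ub1, H3K27me3, H3K4me3 and H3K27ac. With whole 10 kb windows H2AK119ub1 was lower at 8 and H3K27me3 higher at 17. With 2 to 5 kb flanks only, H2AK119ub1 was higher at 5 and lower at 7, H3K27me3 lower at 5, H3K4me3 higher at 9 and lower at 7, and H3K27ac higher at 8 and lower at 3. Over all promoters, H3K4me3 in these flanks was higher at 390 and lower at 1429. There the sign turned for H3K4me3 at Zfp422 (-0.76), Zfp467 (-0.65), Zfp3 (-0.53), Zfp385a (-1.04), Zfp592 (-0.066), Zfp28 (0.035) and Zfp560 (0.33), and for H3K27ac at Zfp422 (-0.024), Zfp365 (0.062), Zfp940 (0.42) and Zfp560 (0.088). The fit relative to neighbouring windows left 5 H2AK119ub1 gains and 1 loss, the latter at Zfp873. All 16 libraries in 1 fit gave 12 H3K27me3 gains and 7 H3K4me3 losses. With 17 further windows near Zfp starts, chosen after seeing the data, H2AK119ub1 was higher at 17 and H3K27me3 lower at 5. The cause of these shifts was not tested.

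Leaving out each library in turn, with the lone library assumed to vary like the others, gave 0 to 11 H2AK119ub1 gains and 0 to 4 losses, 3 to 7 H3K27me3 gains and 2 to 3 losses, 28 to 32 H3K4me3 gains and 9 to 12 losses, and 16 to 21 H3K27ac gains and 8 to 11 losses. The replicate block gave 11 and 4, 6 and 3, 33 and 11, and 24 and 11 gains and losses in the same order of marks and changed no call with full statistics. Deviations of libraries with the same number had correlations of -0.03 in H2AK119ub1, -0.04 in H3K27me3, 0.06 in H3K4me3 and 0.04 in H3K27ac. With 2 libraries per group these values cannot show whether libraries of the same number share an animal, day or batch. H3K27me3 was the shallowest mark, with medians from 65.5 counts upwards at member promoters.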

Other observations

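A further 17 autosomal windows had centres 513 bp to 3484 bp from the annotated start of a Zfp gene, outside the 500 bp used for naming. They were listed after the data were seen, and the window of a neighbouring gene or another transcript start cannot be told apart from the Zfp gene's own. H3K4me3 was called higher at 12 and lower at 4 of them, beside 40.5% higher and 31.8% lower of all promoters. H3K27ac was called higher at 10 and lower at 3, beside 30.9% and 29.1%. Most of the windows lay on chromosome 7, and 13 of the 17 were marked UP. Of the other chromosome 7 genes, H3K4me3 was higher at 72.2% and lower at 7.28%, and H3K27ac higher at 63.9% and lower at 4.97%. The windows' excess of gains cannot be told apart from that of the chromosome. The window near Zfp629 on chromosome 7 went from 99.1 and 114 CPM of H3K4me3 in WT to 437 and 426 CPM in cKO (2.01 ± 0.10) and from 68.3 and 80.9 CPM of H3K27ac to 306 and 330 CPM (2.09 ± 0.17). Its H3K27me3 was 224 and 159 CPM in WT and 97.7 and 73.2 CPM in cKO (-1.16 ± 0.28), a combination called at Zfp422 and Zfp467 among the members.

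The window near Zfp78, also on chromosome 7, fell from 165 and 171 CPM of H3K4me3 to 15.8 and 19.3 CPM (-3.24 ± 0.18) and rose in H3K27me3 from 23.3 and 40.4 CPM to 108 and 77.3 CPM (1.53 ± 0.41), as called at Zfp28 and Zfp365. The window near Zfp423, a regulator of preadipocytes, fell in H3K27ac from 414 and 410 CPM to 87.0 and 145 CPM (-1.83 ± 0.19) and in H3K4me3 from 512 and 592 CPM to 361 and 342 CPM (-0.65 ± 0.08), with H2AK119ub1 at 236 and 142 CPM in WT and 138 and 108 CPM in cKO (-0.63 ± 0.20). The window near Zfp36, the gene of the mRNA decay factor tristetraprolin on chromosome 7, rose in H3K27ac from 570 and 574 CPM to 928 and 773 CPM (0.57 ± 0.13). This was less than the median of its neighbours, 0.84. Its H2AK119ub1 rose from 48.1 and 51.2 CPM to 111 and 94.2 CPM (1.05 ± 0.28), beside neighbours at 0.57.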
